A study of Mus musculus with 3 samples.

Results

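The 7 genes described here regulate gut endocrine cells and lie outside the core set of islet-like factors. They were followed through 3 sorted cell populations from villous preparations of the mouse upper small intestine. They are the transcription factor genes Etv1, Prox1, Hhex and Sox4, the co-repressor genes Runx1t1 and Rcor2, and Mlxipl, which encodes the sugar-responsive factor ChREBP. The members were chosen by name, and all 7 were found among 24069 genes. They are held by 17 transcript models of 200 bases or longer.

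The 3 groups come from C57BL/6 mice, with 1 library each, made from RNA of individual samples that had been mixed in equal parts. GIP-GFP holds fluorescent cells of a reporter for the incretin hormone GIP. Ngn3-TOMATO holds cells of male mice carrying Neurogenin3 (Ngn3)-Cre and a ROSA26-LoxP-STOP-LoxP-tomato allele. In these mice Cre, made in Ngn3-expressing progenitors, switches the tomato reporter on for good, so the sort follows ancestry and not the present state of a cell. Ngn3-negative holds the tomato-negative epithelial cells of that cross. Both tomato sorts left out cells stained for the blood cell marker CD45, and the design text states no such gate for GIP-GFP. The ages of the mice and the number of mice in a pool are not given in the sources used here.

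Enteroendocrine cells are the scattered hormone-secreting cells of the gut epithelium. They arise when Neurogenin 3 is switched on briefly in a crypt progenitor, and later factors settle which hormones a cell makes and keep its secretory program in place. Hhex is a homeobox factor known for maintaining somatostatin-producing delta cells in the pancreatic islet. Prox1 is an atypical homeobox factor of lymphatic endothelium, liver and endocrine progenitors. Sox4 is a high-mobility-group factor of progenitors that promotes endocrine differentiation. Etv1 belongs to the PEA3 group of ETS factors, which act downstream of growth factor signals. Runx1t1 and Rcor2 do not read DNA themselves but bring histone deacetylases to other factors, Rcor2 as a relative of CoREST, the partner of REST and the demethylase LSD1. ChREBP, with its partner Mlx, turns on genes of sugar breakdown and fat synthesis when sugar phosphates build up, and it is abundant in liver, fat, islets and small intestine.

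The DNA just before the gene starts is shown for the genes whose window overlaps no annotated exon, because the members other than Mlxipl were high together in the reporter libraries and Mlxipl has a pair of separate starts. Capitals mark the E-box CANNTG, the letters bound by Neurogenin 3, Neurod1 and other basic helix-loop-helix factors, searched on both strands, where it reads the same. Each window holds the 250 bases before a RefSeq start on GRCm38.p6, the assembly called mm10, written 5′ to 3′ along the gene.
Prox1, chr1:190170828-190171077, minus strand: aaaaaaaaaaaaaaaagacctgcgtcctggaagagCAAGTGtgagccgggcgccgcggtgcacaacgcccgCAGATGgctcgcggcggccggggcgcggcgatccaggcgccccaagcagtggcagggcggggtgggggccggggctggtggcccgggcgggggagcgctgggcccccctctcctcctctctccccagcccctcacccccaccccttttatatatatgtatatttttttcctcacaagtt
Etv1, upstream start, chr12:38779832-38780081, plus strand: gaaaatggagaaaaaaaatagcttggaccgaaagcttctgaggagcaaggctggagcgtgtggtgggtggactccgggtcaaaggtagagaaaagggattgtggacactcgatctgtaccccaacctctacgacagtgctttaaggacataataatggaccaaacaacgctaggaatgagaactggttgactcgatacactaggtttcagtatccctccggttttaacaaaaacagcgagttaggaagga
Mlxipl, downstream start, chr5:135106641-135106890, plus strand: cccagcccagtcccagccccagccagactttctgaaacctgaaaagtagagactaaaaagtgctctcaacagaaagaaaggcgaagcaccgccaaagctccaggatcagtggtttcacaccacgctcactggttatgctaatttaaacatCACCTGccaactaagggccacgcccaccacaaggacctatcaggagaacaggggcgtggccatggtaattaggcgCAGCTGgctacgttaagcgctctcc
Mlxipl, upstream start, chr5:135089640-135089889, plus strand: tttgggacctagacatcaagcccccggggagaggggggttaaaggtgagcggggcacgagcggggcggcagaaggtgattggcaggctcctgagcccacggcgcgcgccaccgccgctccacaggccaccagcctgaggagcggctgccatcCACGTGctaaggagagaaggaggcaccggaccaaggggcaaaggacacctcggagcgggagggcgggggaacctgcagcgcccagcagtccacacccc
The Prox1 window shown held 2 E-boxes, CAAGTG 215 bases and CAGATG 179 bases before the start. The downstream Mlxipl window also held 2, CACCTG 100 bases and CAGCTG 25 bases before the start. The upstream Mlxipl window held CACGTG, the form read by factors of the Myc and Mlx kind, 98 bases before its start. The upstream Etv1 window held none. Of the windows that overlap an exon, not shown, the downstream Etv1 window held 3, those of Sox4 and Rcor2 held 1 each, and those of a second Prox1 start and of Hhex held 0. Among all 32851 windows of that reference, 66.2% held at least 1 E-box, 13.0% held CAGCTG, 14.4% held CAGATG on either strand and 6.02% held CACGTG. A match is a description of the letters and not a measured site. Promoters were matched for 6 of the 7 genes, all but Runx1t1. For both Prox1 windows and that of Rcor2, bases just after the start were not found in the annotated transcripts of the gene. The Prox1 model with signal begins at 190170680, downstream of the start of the window shown.

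Levels are given as scaled FPKM, the deposited value per kilobase of transcript divided by the same number in every library, so levels can be set beside each other between genes as well as between libraries. The brackets give 95% counting limits, which leave out any variation from mouse to mouse or from sort to sort. Ratios are log2 of the values after a pseudocount of 1, which understates the difference for low genes. With 1 library per group no difference has a replicate check. Where 3 levels follow a gene with no library named, they belong to GIP-GFP, to Ngn3-TOMATO and to Ngn3-negative in that order. Ngn3-TOMATO was the deepest library with 1380 Mb of read bases on the transcript models, before Ngn3-negative with 1030 Mb and GIP-GFP with 592.1 Mb. The sorts carried their labels: Gip stood at 241728, 28054 and 730.5 scaled FPKM, and all 9 general enteroendocrine markers were at least 2-fold above Ngn3-negative in both reporter libraries.

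Against Ngn3-negative, Ngn3-TOMATO had 6 of the 7 regulators at least 2-fold higher, and GIP-GFP had all 7. Over all genes at 1 scaled FPKM or more in a compared library, 19.2% of 13409 were that much higher in Ngn3-TOMATO and 21.1% of 13433 in GIP-GFP. The median log2 ratio of the 7 was 3.12 in Ngn3-TOMATO and 2.38 in GIP-GFP, beside 0.03 and 0.07 over all genes. No regulator was 2-fold lower in either, a direction taken by 9.99% and 13.8% of genes. With each library scaled to the same total, the genes past 2-fold in Ngn3-TOMATO against Ngn3-negative were 2231 higher and 1967 lower, where the deposited scale gave 2579 and 1339. Both comparisons share the Ngn3-negative library, so they are not independent of each other. In such bulk libraries a difference in the share of cells of a type and a difference in RNA per cell cannot be told apart.

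**Figure D1:**
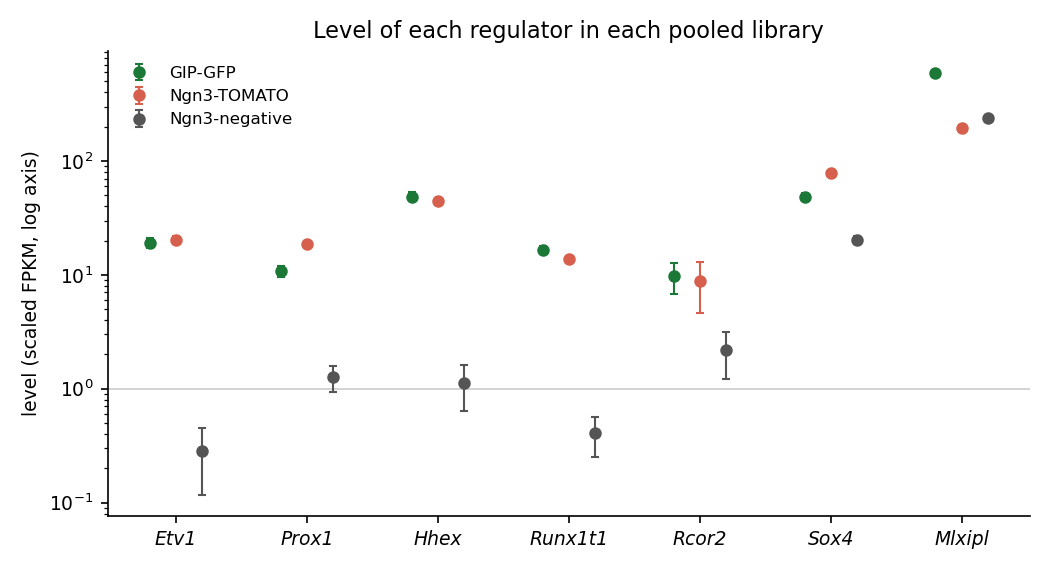
Level of each regulator in the 3 pooled libraries, in scaled FPKM on a log axis, with points for the value and bars for the 95% counting limits; the grey line marks 1 scaled FPKM. Etv1 and Runx1t1 lie below 1 in Ngn3-negative and above 10 in both reporter libraries, while Mlxipl lies above 190 in all 3.

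With the pseudocount of 1, Hhex had the highest log2 ratios to Ngn3-negative among the DNA-binding factors. Hhex (uc008hio.1, chromosome 19, 37434841 to 37440731, plus strand) stood at 44.6 (42.0 to 47.3) in Ngn3-TOMATO and 48.7 (44.4 to 53.0) in GIP-GFP, against 1.12 (0.632 to 1.61) in Ngn3-negative. The reporter libraries were close to each other and far above Ngn3-negative. The log2 ratio to Ngn3-negative was 4.43 (4.08 to 4.77) for Ngn3-TOMATO and 4.55 (4.19 to 4.91) for GIP-GFP. Hhex was at position 160 of 13409 genes by the first of these ratios and at position 245 of 13433 by the other. Sst, the somatostatin precursor made by the cells that Hhex is known for in islets, was at 15445, 18454 and 259.3. The other listed markers of those cells were higher in GIP-GFP than in Ngn3-TOMATO. Isl1 was at 774.6, 148.1 and 3.25, and Rgs4 at 1064, 152.1 and 3.38. A pooled library cannot show whether Hhex and Sst, or Hhex and Gip, were in the same cells.

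Etv1 (uc011ylm.1 and uc007nkp.2, chromosome 12, 38780258 to 38868215, plus strand) was the regulator with the lowest level in Ngn3-negative. The sum of its models stood at 20.4 (19.1 to 21.7) in Ngn3-TOMATO and 19.0 (17.1 to 20.9) in GIP-GFP, against 0.282 (0.118 to 0.447) in Ngn3-negative. Its log2 ratio to Ngn3-negative was 4.06 (3.86 to 4.27) for Ngn3-TOMATO and 3.96 (3.73 to 4.19) for GIP-GFP. The Ngn3-negative value rests on few reads: its error is that of about 11.7 fragments, against 394.6 and 999.5 in GIP-GFP and Ngn3-TOMATO. Without the pseudocount the plain ratios were 72.3 and 67.2, the highest of the 7 regulators in both comparisons.

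Prox1 (uc007ebb.2, chromosome 1, 190121777 to 190170680, minus strand) was also high in both reporter libraries, and higher in the broader sort. It stood at 18.7 (17.6 to 19.8) in Ngn3-TOMATO and 10.8 (9.51 to 12.0) in GIP-GFP, against 1.26 (0.939 to 1.58) in Ngn3-negative. The log2 ratio to Ngn3-negative was 3.12 (2.91 to 3.34) for Ngn3-TOMATO and 2.38 (2.13 to 2.64) for GIP-GFP. The value leaves out a model without a gene symbol, uc007eba.1 (190118261 to 190121147), which lies inside the annotated 3′ untranslated region of Prox1. That model followed the same order, with 12.8, 26.7 and 2.10 scaled FPKM.

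Sox4 (uc007pyk.1, chromosome 13, 28950730 to 28953682, minus strand) differed from the 3 factors before it in its clear level in Ngn3-negative. It stood at 78.1 (75.3 to 80.9) in Ngn3-TOMATO and 48.3 (44.7 to 51.9) in GIP-GFP, against 20.4 (18.8 to 22.0) in Ngn3-negative. The log2 ratio to Ngn3-negative was 1.89 (1.77 to 2.01) for Ngn3-TOMATO and 1.20 (1.05 to 1.36) for GIP-GFP. The long noncoding RNA gene Gm26735 lies on the other strand and shares 2616 exonic bases with Sox4, and no transcript model in the files matched it. The library kit as named in the labels does not mark strand, so reads of the pair cannot be told apart. The same limit holds over shorter stretches for other members. Mlxipl shares 235 exonic bases with Gm43500 on the other strand, which no model matched. Prox1 shares 133 with Prox1os, which was listed at 0 in every library.

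The co-repressor Runx1t1 (chromosome 4, 13743302 to 13893643, plus strand) followed Hhex and Etv1. The sum of its models, of which different ones held the signal in Ngn3-negative and in the reporter libraries, stood at 13.9 (13.0 to 14.8) in Ngn3-TOMATO and 16.7 (15.4 to 17.9) in GIP-GFP, against 0.408 (0.251 to 0.565) in Ngn3-negative. The log2 ratio to Ngn3-negative was 3.40 (3.22 to 3.58) for Ngn3-TOMATO and 3.65 (3.46 to 3.84) for GIP-GFP.

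Rcor2 was the lowest of the 7 regulators in both reporter libraries and had the widest limits for its level there. Its models uc008gkn.1, uc008gko.1 and uc008gkp.1 on chromosome 19 end together at 7275225 on the plus strand. Their sum was 8.79 (4.63 to 13.0) in Ngn3-TOMATO and 9.73 (6.85 to 12.6) in GIP-GFP, against 2.17 (1.21 to 3.14) in Ngn3-negative. The log2 ratio was 1.62 (0.87 to 2.38) for Ngn3-TOMATO and 1.76 (1.17 to 2.34) for GIP-GFP. The lower limit for Ngn3-TOMATO is under 2-fold, and with a pseudocount of 5 the ratio itself, 0.94, was under it. Model uc008gkp.1 carried the quantification status LOWDATA in all 3 libraries, a status held by 406 models in each library whatever its depth. Its deposited limits ran from 0 to just above the value, 0 to 4.12 around 4.08 in Ngn3-TOMATO. The wider side set its error, so the limits and intervals of Rcor2 are not those of counting alone. Without that model the ratios stayed within the intervals above. With only uc008gko.1, the most abundant model on average over the 3 libraries, the log2 ratio was 1.28 for Ngn3-TOMATO but -0.013 for GIP-GFP. In GIP-GFP that model held 13.7% of the gene value and uc008gkn.1 held 63.3%, so the GIP-GFP difference rests on the sum over models.

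Mlxipl was by far the most abundant of the 7 in every library and had its own pattern. It stood at 193.9 (180.2 to 207.6) in Ngn3-TOMATO and 594.3 (582.2 to 606.3) in GIP-GFP, against 238.9 (233.1 to 244.7) in Ngn3-negative. In GIP-GFP it was at position 140 of all genes by level. GIP-GFP was the high library, and the other pair lay near each other with Ngn3-TOMATO the lower. The log2 ratio to Ngn3-negative was 1.31 (1.27 to 1.36) for GIP-GFP and -0.30 (-0.41 to -0.19) for Ngn3-TOMATO. The opposite signs were not tested against each other, and both ratios share a library.

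**Figure D2:**
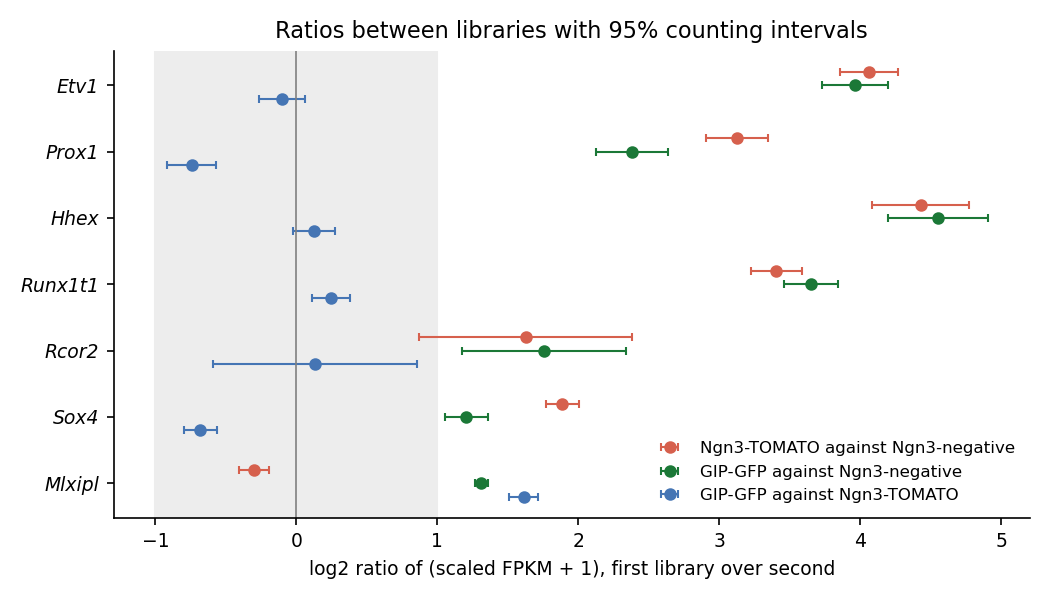
Log2 ratio of each regulator between libraries after a pseudocount of 1, with points for the ratio, bars for the 95% counting interval and grey shading for differences under 2-fold. Only Mlxipl lies past 2-fold between the reporter libraries, at 1.61, and only Mlxipl lies below 0 against Ngn3-negative, at -0.30 for Ngn3-TOMATO.

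Set beside each other, the reporter libraries differed little for most of these genes. In GIP-GFP against Ngn3-TOMATO, Mlxipl was the only regulator past 2-fold in the summed values, at 3.05-fold higher (log2 1.61, 1.505 to 1.716), and no regulator was 2-fold lower. The share of the 13693 genes past 2-fold was 8.05% toward GIP-GFP and 8.76% toward Ngn3-TOMATO. Hhex, Etv1 and Rcor2 had log2 ratios of 0.12 (-0.03 to 0.27), -0.10 (-0.26 to 0.06) and 0.13 (-0.59 to 0.86), all with intervals that hold 0. Runx1t1 was at 0.25 (0.11 to 0.38). Prox1 and Sox4 were lower in GIP-GFP, at -0.74 (-0.92 to -0.57) and -0.68 (-0.80 to -0.56), below 2-fold but outside counting error.

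The order of levels among the 7 changed with the sort. In GIP-GFP it ran Mlxipl, Hhex, Sox4, Etv1, Runx1t1, Prox1 and Rcor2, where the limits of Hhex and Sox4, of Etv1 and Runx1t1, and of Prox1 and Rcor2 overlapped. In Ngn3-TOMATO it ran Mlxipl, Sox4, Hhex, Etv1, Prox1, Runx1t1 and Rcor2, where only Etv1 and Prox1 overlapped among neighbours. In Ngn3-negative it ran Mlxipl, Sox4, Rcor2, Prox1, Hhex, Runx1t1 and Etv1, with overlaps from Rcor2 to Prox1, Prox1 to Hhex and Runx1t1 to Etv1.

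The Ngn3-negative sort held small amounts of every enteroendocrine marker, between 1.39% and 3.21% of the Ngn3-TOMATO level over the 9 general markers, with a median of 1.85%. Etv1 in Ngn3-negative was at 1.38% of its Ngn3-TOMATO level, just below the marker range, and Hhex at 2.51% and Runx1t1 at 2.94% were within it. Prox1 was at 6.73%, Rcor2 at 24.7%, Sox4 at 26.1% and Mlxipl at 123%, all above that range. The cells behind these remaining transcripts were not identified, and this was not tested.

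**Figure D3:**
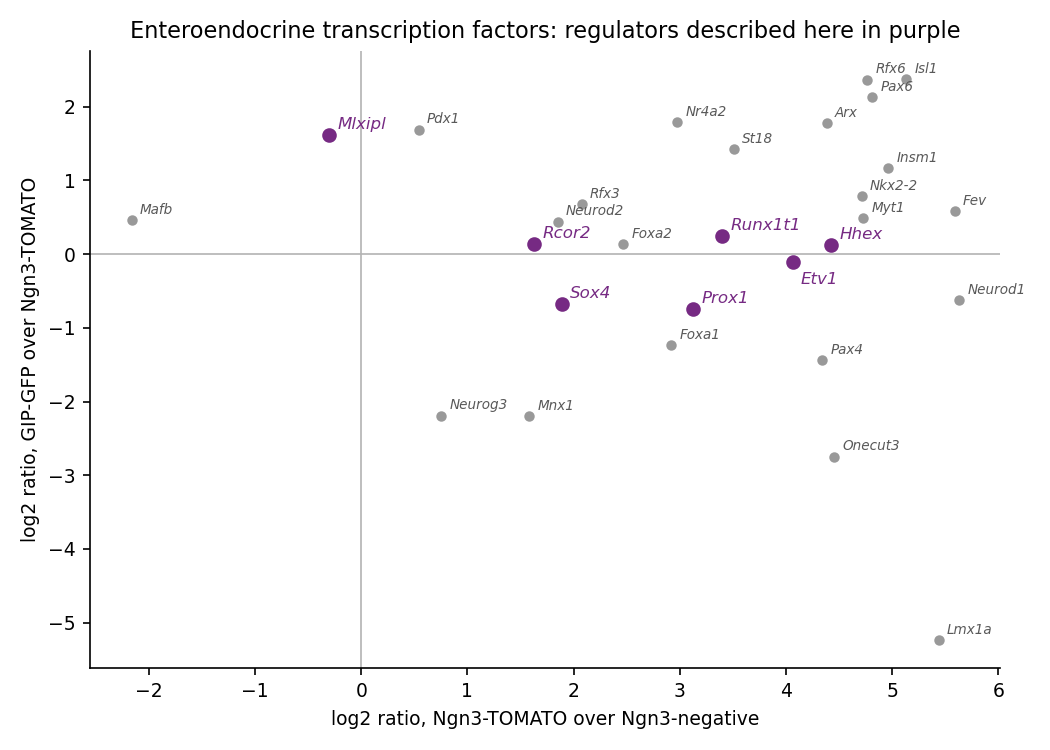
Scatter plot of log2 ratios, with Ngn3-TOMATO over Ngn3-negative on the x axis and GIP-GFP over Ngn3-TOMATO on the y axis, for 29 enteroendocrine transcription factors and co-regulators, with the 7 regulators described here in purple and 22 others in grey. Etv1, Hhex, Runx1t1 and Rcor2 lie near 0 on the y axis, whereas Isl1, Rfx6 and Pax6 lie above 2 and Lmx1a at -5.23.

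In a list of 29 enteroendocrine transcription factors and co-regulators that includes these 7, the other 22 had a median log2 ratio of 4.36 for Ngn3-TOMATO against Ngn3-negative, with 19 of 22 at least 2-fold higher and 1 lower. Over all genes those shares were 19.2% higher and 9.99% lower. Hhex took position 11 of 29 and Etv1 position 14, behind Neurod1 (5.63), Fev (5.59) and Lmx1a (5.44). Runx1t1 was at position 16, Prox1 at 17, Sox4 at 22, Rcor2 at 24 and Mlxipl at 28. Between the reporter libraries, 8 of the other 22 factors were past 2-fold toward GIP-GFP and 6 toward Ngn3-TOMATO, beside 8.05% and 8.76% of all genes. At the top were Isl1 (2.38), Rfx6 (2.37) and Pax6 (2.13), which are also islet factors, and Mlxipl was at position 7 of 29, next to Pdx1 (1.69), the factor of the duodenum and pancreas. At the bottom was the enterochromaffin factor Lmx1a (-5.23).

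Several genes were divided among alternative transcript models. Etv1 was held mostly by uc011ylm.1, which begins at 38783711, with 85.4% of the gene value in GIP-GFP and 87.3% in Ngn3-TOMATO. The rest was assigned to uc007nkp.2, which begins upstream at 38780258. All of the little Etv1 signal in Ngn3-negative was assigned to uc011ylm.1. The split of Etv1 was thus nearly the same in the reporter libraries.

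Runx1t1 in GIP-GFP was assigned wholly to uc008sau.2. In Ngn3-TOMATO 81.0% was assigned to that model and 19.0% to uc008saw.2, which begins downstream at 13751297, while Ngn3-negative held only uc008sax.2. Rcor2 was split in another way: uc008gkn.1, which begins farthest upstream at 7267404, held 63.3% in GIP-GFP and was listed at 0 in the other libraries. Model uc008gko.1, beginning at 7268662, held 53.6% in Ngn3-TOMATO, 62.3% in Ngn3-negative and 13.7% in GIP-GFP. This difference between libraries has no check beyond the limits of the models, 4.56 to 7.76 for uc008gkn.1 in GIP-GFP.

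All Mlxipl models begin at 135106891 on chromosome 5, and those with signal end together at 135138382. In GIP-GFP uc008zxt.2 held 73.6% and uc012eek.2 held 26.4%, and uc012eel.2 was listed at 0. In Ngn3-TOMATO the same models held 44.7%, 36.1% and 19.2%, and in Ngn3-negative 48.8%, 36.9% and 14.3%. The models differ by little, with lengths of 3649, 3696 and 3677 bases, and how well reads tell them apart was not tested. ChREBP-beta, a shorter and more active form known in mouse fat and liver, begins at a separate upstream first exon. The upstream RefSeq start, at 135089890, lies 17001 bases before the other, and no transcript model of the files begins within 1000 bases of it. The values above therefore do not separate the forms.

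**Figure D4:**
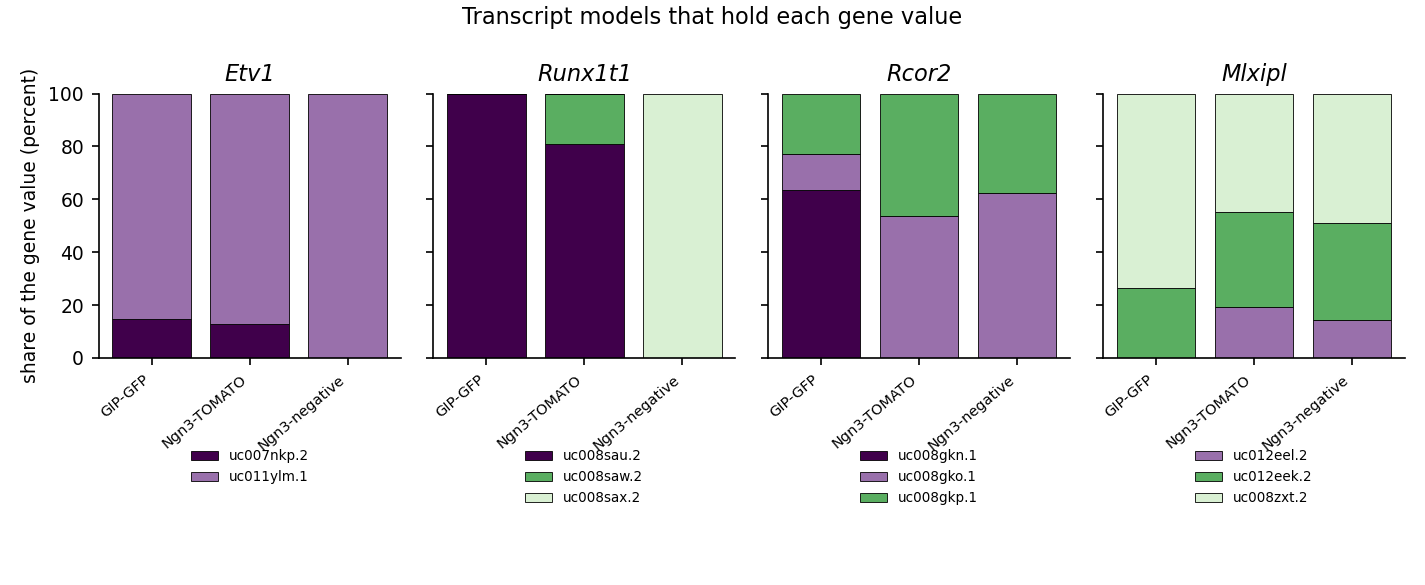
Share of the gene value, in percent, assigned to each transcript model with signal for 4 regulators in the 3 libraries, as stacked bars. Etv1 is split alike in both reporter libraries, at 85.4% and 87.3% for uc011ylm.1, whereas uc008gkn.1 of Rcor2 holds 63.3% in GIP-GFP alone.

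Etv4 and Etv5, the relatives of Etv1, were both over 2-fold higher in Ngn3-TOMATO than in Ngn3-negative, while in GIP-GFP Etv5 was and Etv4 was not. Etv5 was at 9.99 in Ngn3-TOMATO and 33.0 in GIP-GFP, against 0.941 in Ngn3-negative, and Etv4 was at 7.26 in Ngn3-TOMATO, 2.80 in GIP-GFP and 1.35 in Ngn3-negative. Etv5 was thus the highest PEA3 gene of GIP-GFP, at a log2 ratio of 1.63 to Ngn3-TOMATO, whereas Etv4 was at -1.12 and Etv1 at -0.10. Prox2, the other gene of the Prox family, was low throughout, at 2.84, 2.21 and 1.07.

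The Runx1t1 relatives are co-repressors too. Cbfa2t2 was at 22.5, 15.9 and 9.62, and Cbfa2t3 had log2 ratios to Ngn3-negative of 2.38 in Ngn3-TOMATO and of 1.45 in GIP-GFP. The Runx factors, to which Runx1t1 owes its name through a leukemia fusion, were low, with Runx1 at 0.430, 2.48 and 2.18 and Runx2 and Runx3 under 1 in every library.

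Rcor2 was the least abundant of the 3 CoREST genes. Rcor1 was at 38.6, 37.9 and 42.4, near each other in all libraries, and Rcor3 at 44.0, 27.4 and 21.5. Rest, the repressor of neuronal and endocrine genes that recruits CoREST, ran the other way, at 1.87, 4.23 and 8.66. Its log2 ratio to Ngn3-negative was -1.75 for GIP-GFP and -0.88 for Ngn3-TOMATO. Kdm1a, which encodes LSD1, was at 129.4, 70.6 and 43.1, and Insm1, a factor that binds LSD1, at 547.1, 243.2 and 6.84. Gfi1, another LSD1-binding factor, was at 1.81, 22.1 and 8.10. Of the 12 genes of this list, 3 were at least 2-fold higher in each reporter library against Ngn3-negative, and 2 were lower in GIP-GFP. These counts are near the shares over all genes, 19.2% higher in Ngn3-TOMATO and 21.1% higher and 13.8% lower in GIP-GFP.

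Genes that REST is known to repress outside the nervous system were read beside it. Of 18 listed, 13 reached 1 scaled FPKM in Ngn3-TOMATO or Ngn3-negative and 14 in GIP-GFP or Ngn3-negative. Some, such as Unc13a at 16.4, 18.2 and 0, reached it in the reporter libraries alone, so no count of higher genes is given over those that passed. Scg2 was the most abundant of them in GIP-GFP, at 2043, 888.0 and 13.7, and Chga in the other libraries, at 322.8, 8849 and 125.1. Both encode granins of hormone granules. Celf3, which encodes an RNA-binding protein, was at 415.3, 247.6 and 6.94.

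Relatives of Sox4 had lower levels than Sox4 in both reporter libraries. Sox12, of the same SoxC group, was at 11.1, 4.69 and 0.950, and Sox11 was at or near 0 in all. Sox9, a factor of crypt and Paneth cells, was at 9.59, 23.3 and 27.7, lowest in GIP-GFP and above Sox4 in Ngn3-negative.

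The partners of Mlxipl did not share its pattern. Mlx, with which ChREBP binds DNA, was at 85.4, 104.1 and 153.7, and Mlxip, which encodes the related factor MondoA, at 47.1, 51.95 and 53.1. Neither was past 2-fold in any comparison. Of 22 ChREBP target genes listed, 21 were in the files. Of the 18 measured in GIP-GFP against Ngn3-TOMATO, 1 was at least 2-fold higher, the fructose transporter gene Slc2a5 at 77.7 against 32.3, and none was lower, with a median log2 ratio of 0.30 beside 0.08 over all genes. Against Ngn3-negative 3 of 19 measured targets were higher in GIP-GFP and 6 lower, beside 21.1% and 13.8% of all genes. In Ngn3-TOMATO 1 of 19 was higher and 7 lower, beside 19.2% and 9.99%, with a median log2 ratio of -0.72. The 3 higher in GIP-GFP were Acly, which makes acetyl-CoA for fat synthesis (195.7 against 43.6), the arrestin gene Arrdc4 (120.8 against 35.5) and Klf10 (131.4 against 60.4). Those lower in GIP-GFP included the fructose enzyme gene Khk (148.1 against 596.2) and the glucose transporter gene Slc2a2 (32.4 against 212.1). Txnip, a much-used readout of ChREBP and MondoA, was at 701.5, 612.3 and 562.8 in the 3 libraries, with the quantification status FAIL on its models. Enterocyte markers, of the absorptive cells that also carry the fructose genes, were at least 2-fold lower for 9 of 10 in both reporter libraries against Ngn3-negative, and their part in the target values was not tested.

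**Figure D5:**
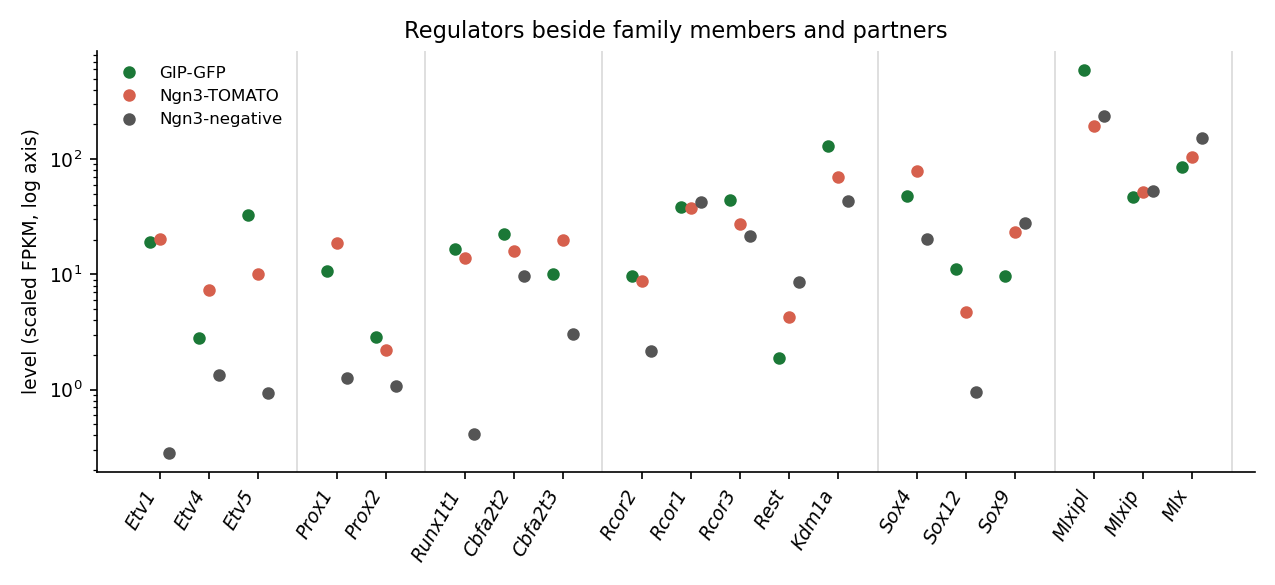
Levels of the regulators beside relatives and partners, in scaled FPKM on a log axis, with a point for each pooled library. Rest is lower in GIP-GFP (1.87) than in Ngn3-negative (8.66) while Rcor2 is higher there, and Etv5 (33.0) exceeds Etv1 (19.0) in GIP-GFP.

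Several of these genes are also used in other cells of the gut wall, and the markers of those cells were read beside them. For Prox1, the lymphatic endothelial markers summed to 3.65, 2.79 and 3.53 scaled FPKM over 6 genes, with Flt4 and Ccl21a listed at 0 in all. The tuft cell markers, of a chemosensory cell type that also has Prox1 and Sox4, summed to 69.9, 458.7 and 228.1 over 10 genes, with 3 of 10 at least 2-fold higher in Ngn3-TOMATO than in Ngn3-negative and all 10 lower in GIP-GFP than in Ngn3-TOMATO. The part of tuft cells in the lower Prox1 and Sox4 of GIP-GFP was not tested. For Etv1, which interstitial cells of Cajal use, the 6 markers of those cells and smooth muscle summed to 42.7, 42.4 and 13.5, of which Kit made up 42.0, 36.5 and 11.4, and Tagln was listed at 0 in all. For Hhex, the other 7 blood endothelial markers summed to 8.68, 16.6 and 2.93, with Cdh5 and Kdr listed at 0 in both reporter libraries. Of those 7, only Pecam1 at 1.97, 9.71 and 0.343 and Egfl7 at 6.05, 5.88 and 1.79 reached 1 scaled FPKM, Pecam1 in the reporter libraries alone. Both were higher in each reporter library than in Ngn3-negative, as Hhex was, and no count is drawn from them. For Runx1t1, the 9 neuron and glia markers summed to 17.5, 22.8 and 2.14, with Sox10 at 0 in all. Among these markers Uchl1 was at 6.97, 10.8 and 0 and Tubb3 at 5.05, 6.04 and 0.492, higher in the reporter libraries as Runx1t1 was. Both reached 1 scaled FPKM in the reporter libraries alone, so no count of higher markers is given. The part of these cell types in the values of Etv1, Hhex and Runx1t1 was not tested. The 6 fibroblast markers summed to at most 1.53 in any library.

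Other epithelial cells also differed between the sorts. In Ngn3-TOMATO against Ngn3-negative, 8 of 8 goblet markers and 7 of 7 Paneth markers were past 2-fold on the higher side, summing to 171908 against 31108 and 28472 against 4964. Over all genes 19.2% were that much higher. In GIP-GFP the goblet and Paneth markers summed to 5402 and 2408. Stem cell markers, of cells in which Sox4 is also used, summed to 836.2, 1320 and 3147, and the 6 cycling markers to 122.0, 144.9 and 479.7, with Tk1 listed at 0 in both reporter libraries. Lymphocyte markers were at least 2-fold higher in GIP-GFP than in Ngn3-TOMATO for 7 of 8, beside 8.05% of all genes. They summed to 382.0 against 63.3, with 160.9 in Ngn3-negative. The 8 B cell and myeloid markers summed to 337.7, 79.8 and 343.0, and the 3 erythroid markers to 35.3, 55.7 and 199.1. The part of these cells in the values of the 7 regulators was not tested.

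The patterns of the 7 over the 3 libraries were compared as the distance between log2 profiles after each gene's mean had been taken off, a description over 3 points. Etv1 lay closest to Hhex (0.42) and Runx1t1 (0.47), and Rcor2 closest to Sox4 (0.59). Mlxipl lay at 1.42 or more from each of the other 6. Among the 10427 genes at 10 scaled FPKM or more in a library, the nearest to Hhex were Mllt11 (0.07), C2cd4b (0.14) and Ttll3 (0.16), those to Etv1 were Rbm10 (0.09), Rtn2 (0.12) and 9130221H12Rik (0.14), and those to Runx1t1 were Kif12 (0.03), Mapk15 (0.04) and Celsr3 (0.06). The nearest to Prox1 were Ly6a (0.03), the Notch ligand gene Jag2 (0.09) and Ttr (0.11), and those to Sox4 were Plscr4 (0.09), Rnf227 (0.10) and Trib1 (0.10). The nearest to Rcor2 were Arhgef38 (0.01), Ficd (0.04) and Hpgds (0.04), and those to Mlxipl were Il15ra (0.08), Sept6 (0.13) and Las1l (0.14). Among the other 21 factors of the list at that level, the closest pair was Myt1 and Nkx2-2 for Hhex (0.47 and 0.69), Myt1 and Pax4 for Etv1 (0.89 and 1.00), Foxa1 and Foxa2 for Prox1 (0.51 and 0.65), Foxa1 and Foxa2 for Sox4 (0.73 and 0.99), Foxa2 and Rfx3 for Runx1t1 (0.81 and 0.96) and for Rcor2 (0.69 and 0.70), and Pdx1 and Rfx3 for Mlxipl (0.72 and 1.69).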

How the data were processed

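Polyadenylated RNA of 3 pooled libraries was sequenced on a Genome Analyzer II from TruSeq libraries, per the labels' protocols. The submitters' processing notes name FastQC, TopHat 1.5.0, Cufflinks (no version) and mm10. The deposited files list 59120 UCSC transcript models, each with its length, its coverage (a signal, the mean read depth), its FPKM with 95% limits and a status, per the file headers. Within each library FPKM divided by coverage was the same number, within 1% for 100% of transcripts: 29553 for GIP-GFP, 12249 for Ngn3-TOMATO and 16284 for Ngn3-negative.

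Gene symbols came from GENCODE M21, whose transcripts were compared with the models, strand unknown, by ends (within 5 bases), spliced length and span, and 51390 received a symbol. Models under 200 bases, mitochondrial genes and genes with too many reads to process (status HIDATA) were left out. FPKM were summed per symbol and divided by 8141 in every library, so that library totals averaged 1000000. The standard error was the wider side of the deposited limits divided by 2, and errors of models were added as independent. The fragments behind a value are the squared ratio of value to error. Genes at 1 scaled FPKM or more in a compared library were compared, and a difference past 2-fold was counted. No library was repeated, so no test was run and no p-value is given. The ratio and interval were tested on simulated data, built from genes at 5 scaled FPKM or more in Ngn3-negative. Most of the regulators lie below that level there, so the simulation does not cover their low values. Its counts carried only the counting error that the interval assumes. Tools were matplotlib 3.10.9, numpy 2.4.6, pandas 2.3.3 and Python 3.11.15.

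The 7 genes and all lists were chosen with earlier results of these data known. Named beside the members were genes of the lists, the most abundant and those farthest from a ratio of 1, and the 3 genes and 2 factors nearest in pattern. Sequences are RefSeq promoters of GRCm38.p6. File starts count from 0 and are printed from 1. Other pseudocounts, filters, scalings, gene sums and matches were tried, and the use of low-data models and of the unmatched Prox1 model was varied after seeing the data.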

Additional observations from a re-analysis of the deposited data

Results flagged for a closer look

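Mlxipl stood out because its reporter libraries lay on opposite sides of Ngn3-negative, with Ngn3-TOMATO at a log2 ratio of -0.30 and GIP-GFP at 1.31. The difference was not tested, and both ratios use the same Ngn3-negative library. Signal also appeared in a transcript model outside the gene values, uc007eba.1, which has no matched symbol and lies inside the annotated span of Prox1. It stood at 12.8 scaled FPKM in GIP-GFP and 26.7 in Ngn3-TOMATO, above 2.10 in Ngn3-negative.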

How the results depend on the processing

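The counts of regulators past 2-fold moved by more than 1.5 times in 2 settings, both through the choice of transcripts. With only models that share an end with GENCODE, just 4 regulators could be compared in GIP-GFP against Ngn3-negative: Prox1, Hhex, Rcor2 and Mlxipl. All 4 were at least 2-fold higher. In GIP-GFP against Ngn3-TOMATO 1 regulator was at least 2-fold lower. That setting gives no value for Etv1 and Sox4, and it leaves Runx1t1 with its minor models. These were under 1 scaled FPKM in GIP-GFP and Ngn3-negative, and at a log2 ratio of -1.86 between the reporter libraries. With only the model most abundant on average over the libraries, uc008gko.1 stands for Rcor2, though it is not the most abundant model in GIP-GFP. Rcor2 was then at a log2 ratio of -0.013 for GIP-GFP against Ngn3-negative, a change of sign. It was the 1 regulator at least 2-fold lower in GIP-GFP against Ngn3-TOMATO, at -1.29. A pseudocount of 5 left 5 regulators at least 2-fold higher in Ngn3-TOMATO, and over pseudocounts of 0.1 and 5 the Etv1 ratio there ran from 5.75 to 2.27. The pseudocount of 5 lowered the genes at least 2-fold higher to 1495 in Ngn3-TOMATO and 1783 in GIP-GFP against Ngn3-negative, from 2579 and 2830, and between the reporter libraries to 600 higher and 670 lower, from 1102 and 1200. Equal totals moved the median of all genes from 0.03 to -0.20 in Ngn3-TOMATO and from 0.07 to -0.13 in GIP-GFP against Ngn3-negative. Equal totals without the 20 most abundant genes moved them to 0.15 and 0.24. No regulator changed its side of 2-fold under any scaling, and Sox4 in GIP-GFP came closest, at 1.00. No paired analysis was possible because each group has 1 library.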
